A study of Mus musculus with 6 samples.

Results

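The meiotic DNA damage checkpoint genes described here are 10 genes chosen by name: the kinases Atr and Atm, the ATR activator Topbp1, the clamp subunits Rad1 and Hus1, the chromatin proteins Mdc1, H2afx and Brca1, and the effector kinases Chek1 and Chek2. All 10 were among the 54532 genes of the count table, and all 10 were among the 8513 that passed the filter on low counts. Their RNA was measured by RNA-seq in L/Z (leptotene and zygotene) spermatocytes, cells of early meiotic prophase I, sorted from mouse testes at 12 days postpartum (dpp) by flow cytometry after Hoechst staining. Control cells came from males labelled wild type, and Eef1g-cKO cells came from C57BL/6J males in which floxed Eef1g, a subunit gene of the translation elongation factor eEF1, was deleted by Stra8-GFPCre. This Cre acts in germ cells from the spermatogonial stage onwards, so the deletion begins before meiosis. Each genotype had 3 libraries.

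During leptonema, programmed DNA breaks are made along the chromosome axes, and the damage response that other cells use against accidental breaks is put to work in a regulated form. ATM responds to the breaks and phosphorylates the histone variant H2AX, whereas ATR is recruited to single-stranded DNA and to axes that have not synapsed. The clamp made of RAD9, RAD1 and HUS1 holds TOPBP1, which switches ATR on. BRCA1 concentrates ATR on unsynapsed axes, MDC1 binds phosphorylated H2AX and spreads the mark through chromatin, and CHK1 and CHK2 pass the signal of ATR and ATM to the cell cycle and to p53 family proteins. Much of this control acts on proteins through phosphorylation and recruitment, which RNA levels do not measure.

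Totals ran from 763133 to 2617648 reads per library, both extremes being in Eef1g-cKO, and the detection floor of 3 reads lay at 1.18 to 4.63 CPM (reads of the gene among 1000000 of its library, scaled by TMM). Eef1g fell by 0.68 on the log2 scale, from 220 ± 7.34 to 136 ± 16.0 CPM (SD, n = 3; adjusted p = 0.029 by the edgeR quasi-likelihood test). Its count covers the whole gene, including exons outside the deleted ones, and so does not measure the deletion fully. Marker genes checked the sort: the summed level of 10 L/Z markers was 10400 to 11600 in control against 21400 to 28500 CPM in Eef1g-cKO libraries, with 6 of its 9 tested genes higher and Stra8 lower. The sum of 8 spermatogonial markers went the other way, from 1490 to 1680 CPM in control down to 673 to 827 CPM in Eef1g-cKO, and all 5 of its tested genes were lower. Sertoli cell markers summed to 82.4 to 293 in control against 1.54 to 45.3 CPM in Eef1g-cKO, with Amh and Gata4 at the detection floor. Peritubular and stromal markers summed to 161 to 294 and 18.5 to 73.7 CPM, markers of pachytene and later cells to 24.1 to 43.1 and 3.09 to 18.4 CPM, Leydig markers to 8.4 to 10.7 and 1.57 to 6.47 CPM, and blood and macrophage markers to 6.72 to 77.9 and 3.23 to 75.7 CPM, each given for control and then Eef1g-cKO. In such bulk samples fewer cells of a type and less RNA per cell cannot be told apart.

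To ask whether loss of eEF1G changed the RNA of the checkpoint machinery, the 10 genes were compared between genotypes. Atr, Topbp1 and Mdc1 rose in Eef1g-cKO spermatocytes (adjusted p under 0.05), and none of the 10 fell by this test. The share that rose was 30.0%, where 7.8% of all 8513 tested genes were higher and 6.01% lower by the same rule. Those that rose were also the members with most reads, 2807 to 5350 in all against at most 1232 for the rest. The share over all tested genes was not matched for depth. Mdc1 alone also passed a log2 fold change of 1, a limit passed by 3.42% of tested genes upwards and 4.96% downwards. At an unadjusted p under 0.05, 5 of the 10 were higher and 0 lower by edgeR, where 14.3% of tested genes were higher and 13.2% lower. CPM values did not overlap between genotypes for Atr, Topbp1, Mdc1, Chek1 and Rad1, each with Eef1g-cKO above control, where 16.4% of tested genes stood apart in that direction and 18.1% in the other. The median log2 fold change of the 10 was 0.43, beside -0.05 over all tested genes. The 10 genes were not tested as a set, and these shares describe them only. All of these are RNA values and do not stand for protein. The paper that reported these data lists ATR and MDC1 among the proteins that were lower in Eef1g-cKO L/Z spermatocytes.

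**Figure D1:**
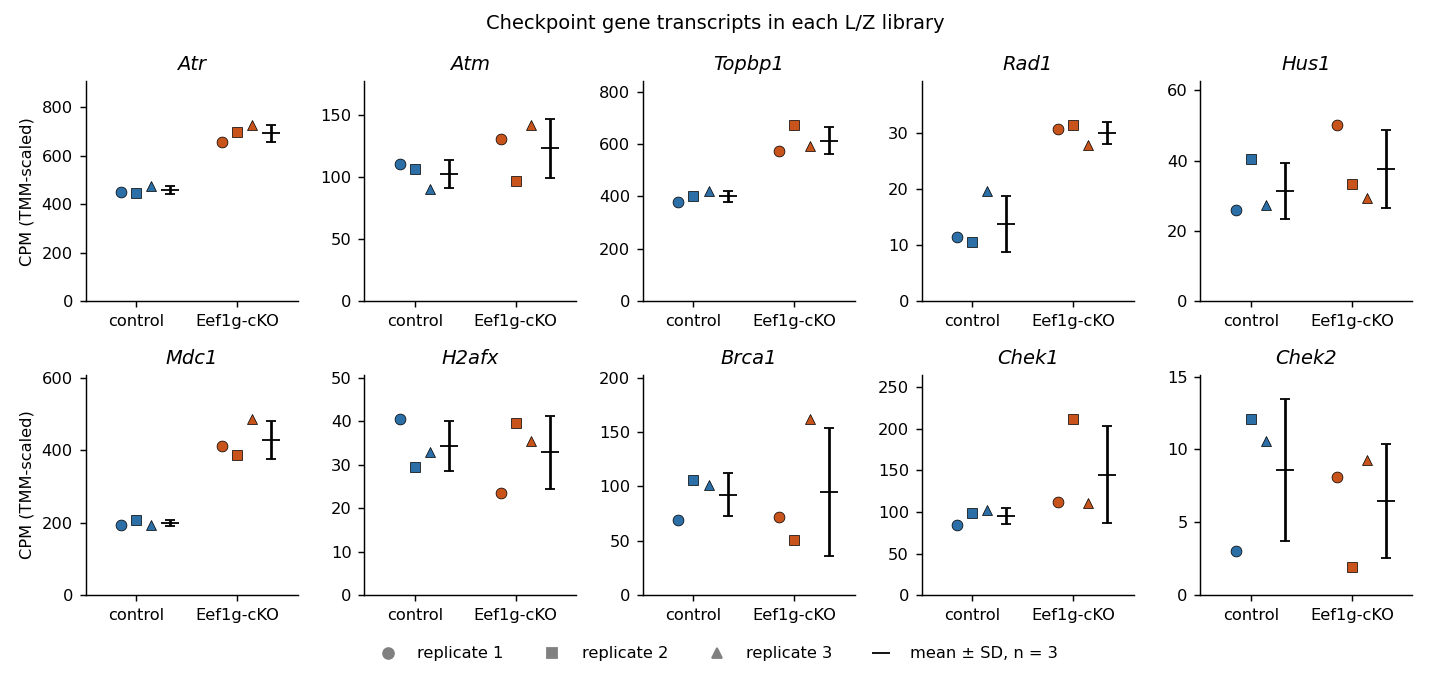
TMM-scaled CPM of each checkpoint gene (vertical axes from 0, a separate scale per gene) in 3 control (blue) and 3 Eef1g-cKO (orange) L/Z libraries. Marker shape gives the replicate number, which is not stated to pair libraries, and the black bar the mean ± SD. The libraries of Atr, Topbp1 and Mdc1 form tight groups that stand apart, whereas Brca1, Chek1 and Chek2 spread widely within Eef1g-cKO.

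The kinase Atr (ENSMUSG00000032409; GRCm38 chr9:95857597-95951781, plus strand, 47 exons in its principal transcript) was the most abundant of the 10 in CPM. Control replicates 1, 2 and 3 held 449, 448 and 477 CPM, and Eef1g-cKO replicates 1, 2 and 3 held 655, 696 and 726 CPM. Every Eef1g-cKO library lay above every control library, and the gap between the genotypes was wider than the spread within either. The means were 458 ± 16.9 and 692 ± 35.6 CPM, a log2 fold change of 0.60 (SE 0.15, 95% confidence interval 0.28 to 0.91), or 1.51-fold (edgeR adjusted p = 0.0118). The call depended on processing: with an offset for transcript GC content, which is 40.8% for Atr, the log2 fold change was 0.36 and edgeR's adjusted p was 0.142, and without control replicate 1 or 2 the adjusted p was 0.0525 and 0.0673.

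Atm, the kinase most tied to the breaks themselves, had 111, 107 and 90.1 CPM in the control libraries and 131, 96.8 and 142 CPM in the Eef1g-cKO libraries. The groups overlapped, since Eef1g-cKO replicate 2 lay below 2 of the control libraries. The difference did not pass the test (log2 difference 0.26, SE 0.25, interval -0.26 to 0.77; edgeR adjusted p = 0.549), and the interval held rises as large as that of Atr. Whether Atr moved more than Atm was tested on the ratio within each library. The log2 ratio of Atr to Atm per length was 0.97 ± 0.21 in control and 1.31 ± 0.30 in Eef1g-cKO (exact two-sided permutation test, p = 0.3, adjusted over 3 ratios 0.45), so a difference between the kinases was not shown; with 3 libraries against 3 the smallest p is 0.1. Without Eef1g-cKO replicate 2 the difference in the log2 ratio went from 0.34 to 0.17.

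Topbp1 (ENSMUSG00000032555; chr9:103305215-103350428, plus strand, 28 exons) encodes the activator of ATR. Its control libraries held 377, 402 and 421 CPM and its Eef1g-cKO libraries 574, 672 and 592 CPM, again with no overlap. The means were 400 ± 22.0 and 613 ± 52.4 CPM, a log2 fold change of 0.62 (SE 0.16, interval 0.29 to 0.94), or 1.53-fold (edgeR adjusted p = 0.0121). Without control replicate 1 or 2 its edgeR adjusted p was 0.0627 and 0.0595, and with scaling by library totals alone it was 0.102. With the GC offset the log2 fold change of Topbp1 was 0.60 (edgeR adjusted p = 0.0165).

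The clamp subunits were measured at low depth. Rad1, the subunit shared by every form of the clamp, had 15, 20 and 35 reads in the control and 38, 80 and 18 reads in the Eef1g-cKO libraries, or 11.4, 10.5 and 19.6 against 30.7, 31.4 and 27.8 CPM. The Eef1g-cKO libraries lay close together and above all controls. The log2 fold change of 1.11 was as large as that of Mdc1, but its error was wider (SE 0.49, interval 0.08 to 2.15), and edgeR's adjusted p of 0.149 did not pass. Hus1 had 26.0, 40.4 and 27.4 in control against 50.1, 33.3 and 29.3 CPM in Eef1g-cKO, which overlapped (0.27 on the log2 scale, SE 0.40; adjusted p = 0.713 by edgeR). The log2 ratio of Rad1 to Hus1 per length was -1.38 ± 0.72 in control and -0.49 ± 0.36 in Eef1g-cKO (exact permutation p = 0.2, adjusted 0.45). The difference of 0.90 was 0.53 without control replicate 2. These ratios divide by all exon bases, 7400 for Rad1 against 1514 in its principal transcript. By the principal transcript, mean CPM per kilobase was higher for Rad1: 9.15 against 6.74 in control, 19.8 against 8.1 in Eef1g-cKO. Control replicate 2 went the other way (6.93 against 8.71). The difference between genotypes does not depend on the length used. Other parts of the clamp, named here after their values were seen, did not pass either: Rad9b stood at 23.7 ± 6.73 and 18.0 ± 7.59 CPM (edgeR adjusted p = 0.633), Hus1b, the germ cell paralog of Hus1, at 23.5 ± 4.02 and 30.8 ± 18.9 CPM (edgeR adjusted p = 0.722), and Rad9a had too few reads to be tested.

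Among the chromatin proteins Mdc1 moved most. Mdc1 (ENSMUSG00000061607; chr17:35841515-35859670, plus strand, 16 exons) encodes the reader of phosphorylated H2AX that is needed to silence the sex chromosomes at the next stage. Its control libraries held 195, 208 and 193 CPM and its Eef1g-cKO libraries 413, 386 and 487 CPM. The lowest Eef1g-cKO library was well above the highest control. The means of 199 ± 8.15 and 429 ± 51.9 CPM differed by 1.10 on the log2 scale (SE 0.17, interval 0.74 to 1.47), or 2.15-fold (edgeR adjusted p = 0.00036). This call held under all 13 alternative analyses and without any single library, with log2 fold changes from 0.90 to 1.30.

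H2afx, the histone variant that MDC1 reads once it is phosphorylated, did not pass the test. Control libraries held 40.5, 29.4 and 33.0 CPM and Eef1g-cKO libraries 23.5, 39.6 and 35.5 CPM, fully overlapping (log2 fold change -0.05, SE 0.40, interval -0.89 to 0.78; edgeR adjusted p = 0.948). The interval was too wide to exclude a change as large as that of Topbp1, and the GC offset turned the direction (0.47, still not past the test). H2afx is a single exon gene with the highest GC content of the 10 (62.3%), and part of its RNA in cells lacks a poly(A) tail and would not be captured from polyadenylated RNA.

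Brca1 differed between libraries more than between genotypes. It had 69.5, 106 and 101 in control against 72.0, 50.6 and 162 CPM in Eef1g-cKO, so that 1 genotype held both the lowest and the highest value. The log2 fold change was -0.02 (SE 0.36, interval -0.77 to 0.74; edgeR adjusted p = 0.98), and it ran from -0.58 without Eef1g-cKO replicate 3 to 0.32 without Eef1g-cKO replicate 2. Replicate 3 was the shallowest library, with 105 Brca1 reads.

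The effector kinases differed in depth, with 1232 reads in all for Chek1 and 67 for Chek2. Chek1 had 84.0, 98.7 and 102 in control against 112, 212 and 111 CPM in Eef1g-cKO. The groups did not overlap, but 1 library stood far above the other 2 of its group, and the log2 fold change of 0.63 (SE 0.27, interval 0.06 to 1.20) missed the threshold at an edgeR adjusted p of 0.135. Without that library, Eef1g-cKO replicate 2, it was 0.25, and without Eef1g-cKO replicate 3 it was 0.82 (edgeR adjusted p = 0.0341). Chek2 had 4, 23 and 19 reads in control and 10, 5 and 6 reads in Eef1g-cKO, or 8.59 ± 4.85 and 6.44 ± 3.92 CPM. The difference in Chek2 did not pass the test, and its interval was the widest of the 10 (log2 fold change -0.54, SE 0.87, interval -2.37 to 1.29; edgeR adjusted p = 0.742). The log2 ratio of Chek1 to Chek2 per length was 2.99 ± 0.87 in control and 3.98 ± 1.74 in Eef1g-cKO (exact permutation p = 0.5, adjusted 0.5). The difference of 0.99 rested on Eef1g-cKO replicate 2: it was -0.01 without that library, and it was 1.56 without Eef1g-cKO replicate 3 and 1.49 without control replicate 1.

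**Figure D2:**
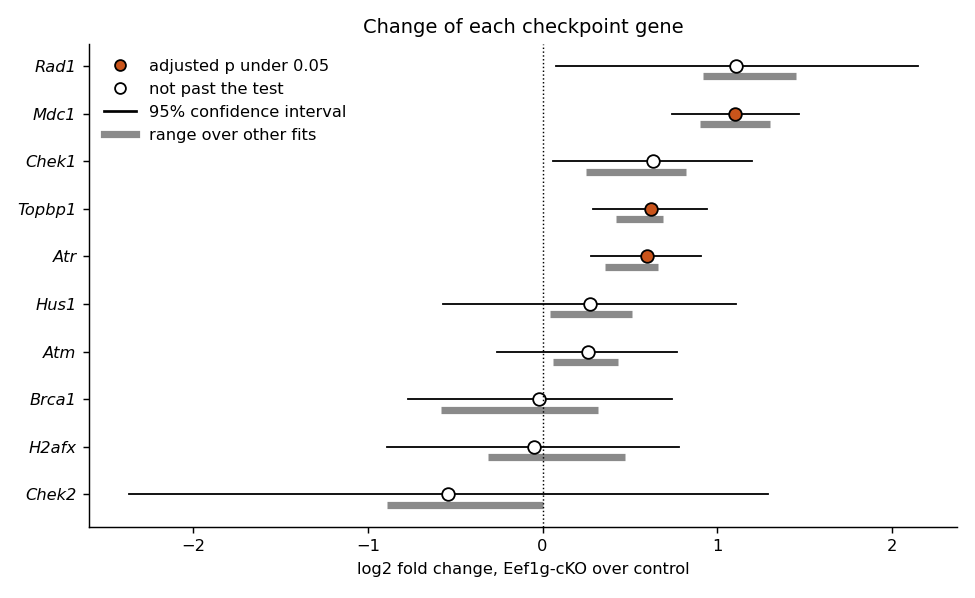
Log2 fold change of each checkpoint gene, Eef1g-cKO over control (point; filled where the edgeR adjusted p is under 0.05), with its 95% confidence interval (black line) and the range over alternative analyses and over leaving out 1 library (grey bar). Mdc1, Topbp1 and Atr have intervals above 0, as do Rad1 and Chek1, which miss the adjusted threshold; the grey bars of Brca1 and H2afx cross 0.

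Levels of different genes can be compared only per length, and here the length mattered. The table's gene length counts every base that any transcript of the gene covers, retained introns included: 23629 bases for Atr against 8102 in its principal transcript, and 7400 against 1514 for Rad1. By the table's length, Topbp1 stood first in control cells at 35.6 RPKM (CPM per 1000 bases), clear of Mdc1 at 26.8. Mdc1, H2afx (24.8), Chek1 (20.5) and Atr (19.4) formed a run in which each neighbour overlapped the next. Brca1 (10.8) and Atm (9.91) overlapped below them, followed by Hus1 (4.85), Chek2 (2.86) and Rad1 (1.87), again overlapping.

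By the length of the principal transcript, chosen as a divisor after the files were seen, Atr moved up to the place after Topbp1. Topbp1 had 76.5 RPKM and Atr 56.5 RPKM, both clear of the next gene, and Mdc1 (27.1), Chek1 (25.0) and H2afx (24.8) overlapped. Brca1 (14.0), Atm (10.5), Rad1 (9.15) and Hus1 (6.74) formed a run in which neighbours overlapped. Chek2 was last at 3.77 RPKM and did not overlap Hus1. In both orders Topbp1 was first, Atr stood above Atm, and Chek1 stood above Chek2. The clamp subunits Rad1 and Hus1, which act with TOPBP1 on ATR, had control means below that of Atm in both orders. By the principal transcript, however, Rad1 overlapped Atm in control and lay clear above it in Eef1g-cKO (19.8 against 12.6 RPKM). In Eef1g-cKO cells Mdc1 reached 57.8 RPKM by the table's length and overlapped Topbp1 at 54.6. By the principal transcript it did not: Topbp1 had 117 RPKM, Atr 85.5 and Mdc1 58.4, each clear of the one before.

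**Figure D3:**
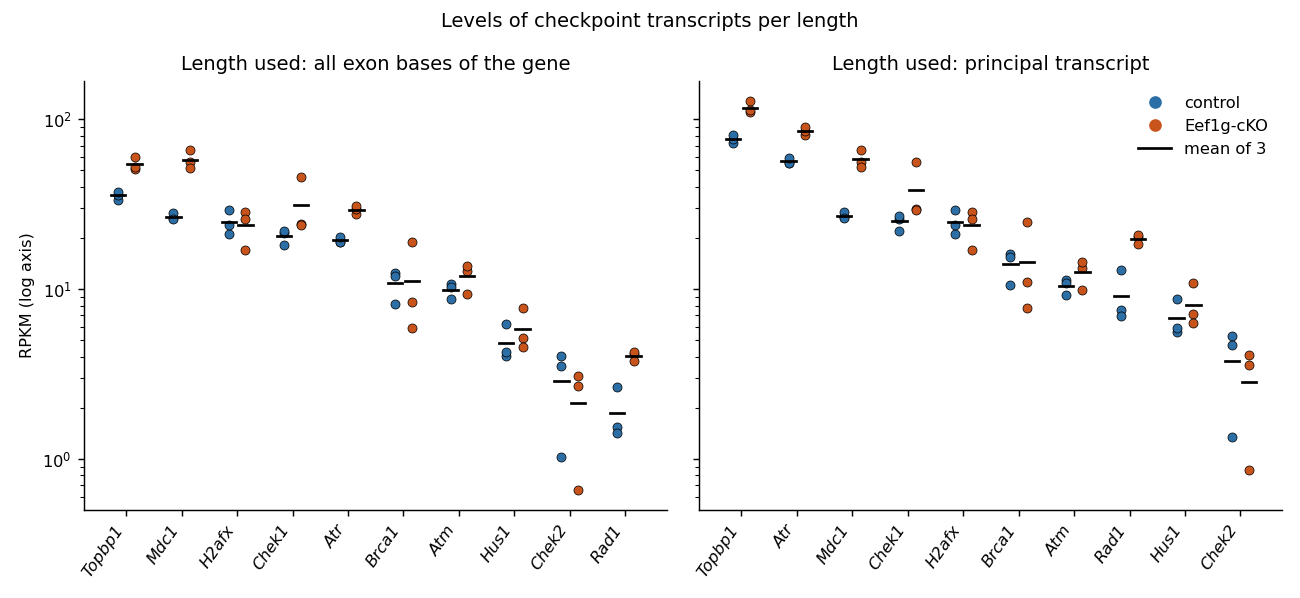
RPKM of each checkpoint gene on a log axis in 3 control (blue) and 3 Eef1g-cKO (orange) libraries, with the mean of each group (black line), dividing by all exon bases of the gene (left) or by its principal transcript (right); genes are ordered by the control mean. Atr lies below Mdc1, H2afx and Chek1 on the left and above them on the right, while Topbp1 leads both.

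Together the 10 genes took 1370, 1460 and 1480 CPM of the control libraries and 2070, 2220 and 2320 CPM of the Eef1g-cKO libraries. Atr, Topbp1 and Mdc1 made up 72.4% to 74.7% of this sum in control and 77.7% to 79.3% in Eef1g-cKO. Set against the L/Z markers of the same library, the picture differed. Per 100 CPM of L/Z markers the 10 genes had 13.2, 12.6 and 13.6 in control against 8.78, 10.4 and 8.15 CPM in Eef1g-cKO, so every Eef1g-cKO library was below every control. Mdc1 alone had 1.88, 1.79 and 1.77 CPM per 100 in control and 1.75, 1.80 and 1.71 in Eef1g-cKO, and the groups overlapped. The L/Z sum is led by Sycp1, at 5100 ± 248 and 10500 ± 2380 CPM, and it rose with genotype. The median log2 fold change of its tested genes was 1.09, beside 1.10 for Mdc1 and -0.05 for all tested genes. Any gene that rose less than the markers comes out lower by this measure. The overlap of Mdc1 and the lower ratio of the 10 genes thus follow from those changes and are not separate results about the members. What part the fuller L/Z signal and the lower spermatogonial and Sertoli signals had in the rise of Atr, Topbp1 and Mdc1 was not tested.

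**Figure D4:**
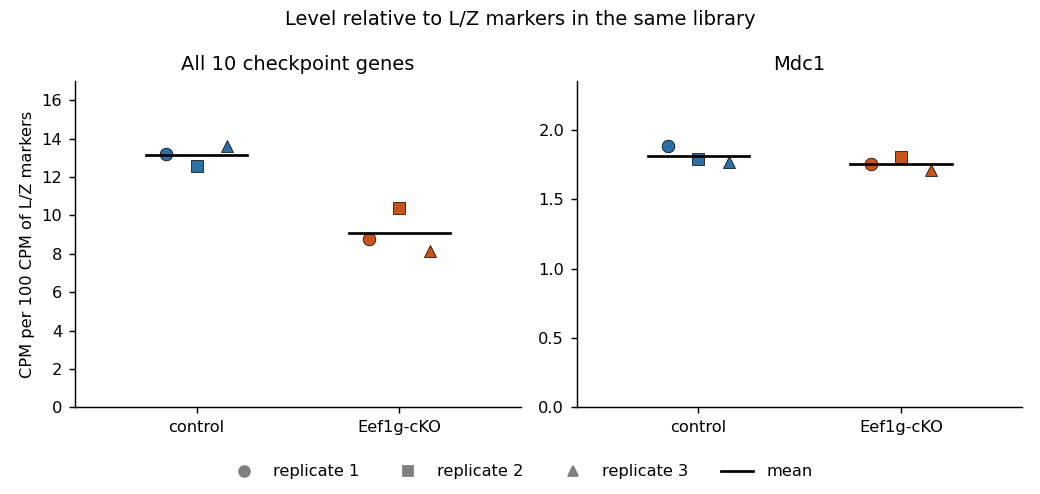
CPM of all 10 checkpoint genes (left) and of Mdc1 (right) per 100 CPM of the summed L/Z markers in each library, both axes from 0, with marker shape for the replicate and a black line for the mean. The 10 genes together sit at 12.6 to 13.6 in control and 8.15 to 10.4 in Eef1g-cKO, whereas Mdc1 overlaps at 1.71 to 1.88.

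Related genes were counted by the same rule, by which 7.8% of all tested genes were higher. Of 13 other sensor and clamp genes, 11 were tested, 2 rose and 0 fell, with a median log2 fold change of 0.13. Rad17, the loader of the clamp, stood at 264 ± 28.2 in control against 452 ± 79.3 CPM in Eef1g-cKO and rose by 0.77 on the log2 scale (SE 0.18; edgeR adjusted p = 0.00733), and Rpa3, the small subunit of the protein that coats single-stranded DNA, rose by 0.67 (edgeR adjusted p = 0.0478). Of 15 other chromatin mediators, all tested, 3 rose and 0 fell, with a median of 0.14. These were Rbbp8, which starts resection of broken ends (log2 fold change 0.88, edgeR adjusted p = 0.00127), Scml2, a germline Polycomb protein (0.83, edgeR adjusted p = 0.00199), and Brca2, which loads recombinases (0.66, edgeR adjusted p = 0.0355). Of 13 other effectors and targets, 8 were tested, 1 rose and 0 fell, with a median of -0.09. The 1 that rose was Tipin, of the fork protection complex that helps CHK1 activation (0.82, edgeR adjusted p = 0.00106). Timeless, also of that complex, and Clspn are named after their values were seen. Their log2 fold changes of -0.90 and -0.04 did not pass (edgeR adjusted p = 0.136 and 0.937). Trp53, Trp63 and Trp73, the p53 family genes downstream of the kinases, did not pass the filter on low counts.

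Of 7 axis and break genes, taken as inputs to the checkpoint, 6 were tested. Of these, 3 rose past a log2 fold change of 1 and 0 fell, with a median of 0.88. Hormad1, whose product recruits ATR to unsynapsed axes, had 815 ± 145 in control against 2680 ± 548 CPM in Eef1g-cKO and rose by 1.72 on the log2 scale (SE 0.17; edgeR adjusted p = 5.93e-06), and it is also 1 of the L/Z markers. Hormad2 rose by 1.26 (edgeR adjusted p = 0.00495) and Iho1, which brings the break machinery to axes, by 1.04 (edgeR adjusted p = 0.00354). The other tested genes of this list did not pass, with log2 fold changes of 0.73 for Mei4, 0.07 for Spo11 and -0.56 for Trip13 (edgeR adjusted p = 0.239, 0.896 and 0.224), which are named after their values were seen. Of 16 DNA replication genes, 1 rose (Pcna, 1.02) and 2 fell (Cdc6, by 1.57, and Cdt1, by 1.32), around a median of 0.00. The checkpoint genes' median of 0.43 thus lay between that of the axis and break genes and those of the other lists; these medians were not compared by a test.

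**Figure D5:**
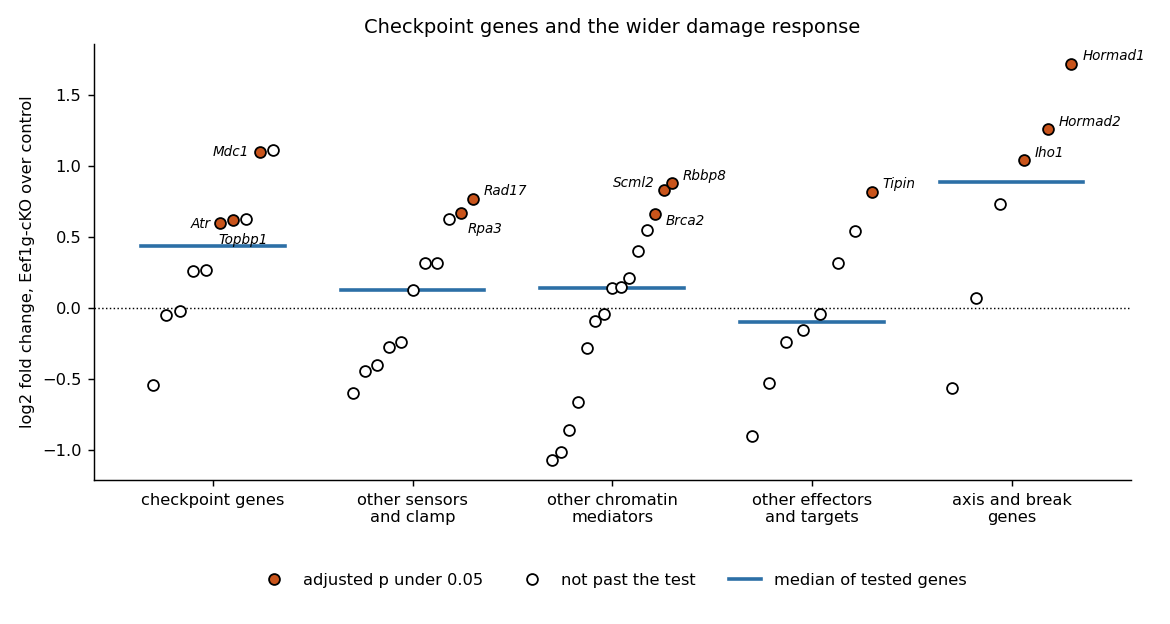
Log2 fold change, Eef1g-cKO over control, of each tested checkpoint gene and of 4 lists of related genes; points are genes, filled and named where the edgeR adjusted p is under 0.05, and blue lines are list medians. The medians are 0.43 for the checkpoint genes, 0.13, 0.14 and -0.09 for other sensors, mediators and effectors, and 0.88 for the axis and break genes.

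The sequence before the start sites of Atr, Topbp1 and Mdc1 is shown because these are the members that rose together. The windows are the bases just upstream of the RefSeq start (GRCm38.p6, plus strand, 5′ to 3′), at chr9:95857347-95857596 for Atr, chr9:103305077-103305214 for Topbp1 and chr17:35841248-35841497 for Mdc1. The window of Topbp1 stops where its GENCODE gene model begins. Capitals mark the motif matches found within the printed bases. For Topbp1, 112 of the 250 searched bases lie in that model and are not shown. Its matches there were a GC box at -56 and an ETS site at -101.
Atr: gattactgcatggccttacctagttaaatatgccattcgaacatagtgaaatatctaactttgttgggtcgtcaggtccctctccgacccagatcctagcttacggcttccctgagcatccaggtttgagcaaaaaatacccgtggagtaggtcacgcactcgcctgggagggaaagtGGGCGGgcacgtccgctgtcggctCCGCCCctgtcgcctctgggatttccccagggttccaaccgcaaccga
Topbp1: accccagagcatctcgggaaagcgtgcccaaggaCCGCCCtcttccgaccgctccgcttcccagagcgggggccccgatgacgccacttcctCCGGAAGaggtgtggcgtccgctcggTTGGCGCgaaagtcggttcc
Mdc1: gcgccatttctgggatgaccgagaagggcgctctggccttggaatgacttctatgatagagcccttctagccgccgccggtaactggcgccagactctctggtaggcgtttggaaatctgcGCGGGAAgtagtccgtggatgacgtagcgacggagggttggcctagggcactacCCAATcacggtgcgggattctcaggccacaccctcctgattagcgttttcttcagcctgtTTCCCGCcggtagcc

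Motifs were searched on both strands of the 250 bases before the RefSeq start, for which 9 of the 10 members had an entry. The GC box GGGCGG was found before Atr, Topbp1, Atm and Hus1, 4 of 9, and in 60.9% of the 8180 promoters of tested genes. The CCAAT box CCAAT was found before Mdc1, Atm, Brca1 and Chek2, again 4 of 9, and in 36.3% of those promoters. The E2F form TTCCCGC was found before Mdc1 and Chek2 (7.9% of promoters of tested genes), the form TTGGCGC before Topbp1 (4.0%), and the ETS site CCGGAAG before Topbp1 and Rad1 (16.0%). The letters CNCCTCAG, associated with promoters bound by STRA8, were in none of the 9 windows and in 7.6% of promoters of tested genes. None of the motifs searched was common to Atr, Topbp1 and Mdc1. These matches describe letters only. The window of Chek1 lay within its longer GENCODE model, as did 112 bases of the window of Topbp1, 69 of Atm and 4 of Chek2.

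None of the 4 tested head-to-head neighbours of the members passed the test, and neither did the members beside them. Of the 10 members, 5 are on chromosome 9, among them Atr and Topbp1, and 5 have a gene that starts head to head within 1000 bases. Npat, the neighbour of Atm, stood at 143 ± 26.0 and 170 ± 34.0 CPM (edgeR adjusted p = 0.496), and Brix1, the neighbour of Rad1, at 260 ± 30.3 and 245 ± 35.4 CPM (edgeR adjusted p = 0.789). Nbr1 beside Brca1 and Hscb beside Chek2 had log2 fold changes of -0.56 and -0.94 that did not pass (edgeR adjusted p = 0.18 and 0.198), and 1300017J02Rik beside Topbp1 had 7, 5 and 1 reads in control and 0 in each Eef1g-cKO library and was not tested. Within Atr lie the antisense genes 1700065D16Rik and Gm16794 and the small nuclear RNA gene Gm24004, which had at most 11 reads in any library against at least 470 for Atr; whether the counting used strand is not stated.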

How the data were processed

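RNA-seq was analysed in 3 control and 3 Eef1g-cKO libraries of sorted L/Z spermatocytes at 12 dpp. Per the labels, full-length cDNA was made from poly(A) RNA and amplified, with no molecular identifiers. Reads copied by amplification thus cannot be told from reads of separate molecules. The submitters' processing notes name fastp, HISAT2 and featureCounts with build mm10; the strand setting and the treatment of multiply aligned reads are not given in the sources used here. The deposited values are raw counts per gene, which the authors neither normalised nor pooled, with gene length and position.

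Counts were tested with edgeR 4.0.16 in R 4.3.3 (filterByExpr with minimum count 10 and total 15, TMM scaling, robust quasi-likelihood F test, genotype as the only term). The 8513 tested genes held 98.1% of the reads, and Benjamini-Hochberg adjustment ran over all of them. SE is the size of the log2 fold change over the square root of F. Ratios of 2 genes used RPKM by the table's gene length, with 0.5 reads added. The procedure was also run on counts simulated from its own means and dispersions, which checks the code and does not bear on the calls reported here. Positions were taken from the table, exons and transcript lengths from GENCODE mouse release 21, and promoter windows from RefSeq. No 2 libraries agreed within sampling noise (lowest chi-square per degree of freedom 6.37), so all were kept. The labels do not say whether libraries of a genotype came from separate animals, so p-values measure the spread between these libraries, which may be technical.

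The members and gene lists were chosen with earlier results of these data known. All 10 members are named; of the related lists, the up to 3 genes per direction with the largest change among those past the test; and of neighbours, those head to head within 1000 bases. Alternatives were other scalings, filters and estimators, DESeq2 1.42.0, limma-voom (limma 3.58.1), thinned libraries, a GC content offset, a replicate block and leaving out each library.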

Additional observations from a re-analysis of the deposited data

How the results depend on the processing

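The number of members that rose was 3 in the reported analysis and stayed at 3 with RLE or upper-quartile scaling, both other filters, non-robust estimation, DESeq2, limma-voom, thinned libraries, no mitochondrial and rRNA genes, and a replicate block. It was 2 with the GC content offset, alone or with the replicate block, 1 with library totals alone or with the log2 fold change limit of 1, and 5 at an unadjusted p under 0.05. Leaving out 1 library gave 1 to 4: 1 without control replicate 1 or 2, and 4 without Eef1g-cKO replicate 3. The number that fell was 0 throughout. Library totals alone moved the median of all tested genes by -0.19 and upper-quartile scaling by -0.12. Under library totals alone the edgeR adjusted p was 0.0948 for Atr (log2 fold change 0.40) and 0.102 for Topbp1 (0.42). With each scaling's own all-gene median subtracted, Atr differed by 0.64 to 0.65, Topbp1 by 0.66 to 0.67 and Mdc1 by 1.14 to 1.16. Scaling shifts all genes by nearly the same amount, so these values were bound to stay level under all 4 scalings. They therefore cannot speak for or against the calls lost under library totals alone. With the GC content offset, which can shift genes by different amounts, the values were 0.35 for Atr, 0.59 for Topbp1 and 1.29 for Mdc1. The median of the members ran from 0.24 to 0.54 over these alternatives and from 0.40 to 0.55 without 1 library. Chek2 gave no value with at least 10 reads in every library or with thinned libraries. The labels do not state whether equal replicate numbers pair libraries. Correlations of deviations between equal numbers were -0.0352, 0.0176 and -0.046, which showed no pairing but cannot exclude it. The replicate block is given only here. Low counts limit Chek2, with 4 to 23 reads in a library, and Rad1, with 15 to 80.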
